A study of Caenorhabditis elegans with 9 samples.

Results

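The ttr genes encode the transthyretin-like proteins of Caenorhabditis elegans. They were taken here as every gene whose name in the deposited table of gene reads starts with ttr- and a number, which gave 59 of 46699 genes. Their RNA was measured in whole L4 larvae in lethargus, the sleep-like state that precedes each molt. The worms were synchronised by bleaching, fed E. coli OP50 and collected by hand while asleep, and 3 groups of 3 libraries were sequenced, each library a biological replicate per the series' design text. The groups were nas-38(ok3407) larvae of strain HBR1010, nas-38(tm2655) larvae of strain HBR1114 and N2 wild-type larvae. The deposited tables call ok3407 a gain of function and tm2655 a loss of function, and the series title spells the first of these alleles ok4307, while the sample labels write ok3407. Each allele was studied in 1 strain. The gene nas-38 encodes an astacin, a zinc metalloprotease of the secreted type.

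Transthyretin-like proteins are small secreted proteins with a fold related to that of transthyretin, the thyroid hormone carrier of vertebrate blood, and the family is much expanded in nematodes. Most members have no described role. TTR-52 is known to bind phosphatidylserine on the surface of dying cells and to bridge it to the engulfment receptor CED-1, and it also acts in the regrowth and fusion of cut axons. TTR-33 is known to protect dopamine neurons against oxidative stress.

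The libraries held 13759541 to 40523994 gene reads, the fewest in wild-type replicate 1. Levels are given as CPM, a gene's reads relative to all gene reads of its library, scaled with TMM factors, which correct for differences in library composition, or as the deposited RPKM, which also divides by exon length. The mutated gene itself, nas-38, stood at 227, 375 and 337 CPM in ok3407 larvae, at 10.04, 14.4 and 7.56 CPM in tm2655 larvae and at 134, 57.9 and 65.1 CPM in wild-type larvae. All ok3407 libraries were above and all tm2655 libraries below the wild-type ones. With edgeR the log2 difference from wild type was 1.87 ± 0.37 (SE, adjusted p = 0.0265) in ok3407 larvae. In tm2655 larvae it was -3.0 ± 0.39 (SE, unadjusted p = 3.94e-05, adjusted p = 0.316). DESeq2 called nas-38 lower in tm2655 larvae, while edgeR and limma did not. On the first principal component of all tested genes the ok3407 libraries lay at -67.1 to -47, tm2655 replicate 1 at -1.33 and the other 5 at 26.8 to 51.3, and on the third tm2655 replicate 1 lay at 66.1, apart from the rest. Among lists of tissue markers, the summed level of 7 intestine genes was 3310.1 to 3979 CPM in ok3407 larvae, 5721 to 8109 CPM in tm2655 larvae and 5351 to 8256 CPM in wild-type larvae. The summed level of 6 body muscle genes was 7369 to 8613 CPM in ok3407 larvae, 9846 to 12188 CPM in tm2655 larvae and 10925 to 13384 CPM in wild-type larvae. Abundant genes weigh most in these sums. In ok3407 and wild-type larvae the intestine genes asp-1 and act-5 averaged 2009 against 3402 CPM and 525 against 1668 CPM. The muscle gene unc-54 averaged 4347 against 7274 CPM. The intestine genes elt-2 and vha-6 did not pass (adjusted p = 0.404 and 0.517 with edgeR). Against wild type 1 of the intestine genes fell in ok3407 larvae, act-5 (log2 -1.67, adjusted p = 0.00802), and 3 of the muscle genes did, unc-54, unc-22 and unc-27. With limma act-5 and unc-54 alone of these passed. DESeq2 called act-5, unc-54, unc-22 and unc-27 lower, and also the intestine gene asp-1 and the muscle gene unc-15. It called the intestine gene elt-7 higher, which was at log2 0.81 with edgeR (adjusted p = 0.0767). At an unadjusted p under 0.05 with edgeR, 5 intestine genes differed, 1 of them higher, and 4 muscle genes, 0 of them higher. Of all tested genes 12.1% were higher and 11.5% lower at that threshold. Of 7 epidermis genes, summed to 76.6 to 209.9 CPM in ok3407 larvae, 89.6 to 172 CPM in tm2655 larvae and 91.4 to 246 CPM in wild-type larvae, elt-3 fell (log2 -0.92, adjusted p = 0.0390), though limma did not call it. The median log2 fold change of the epidermis list was 0.45, and che-14, at log2 1.93 (adjusted p = 0.118), was called higher by DESeq2. In lists of pharynx, neuron, glia, germ line, sperm and coelomocyte markers 0 genes passed with edgeR, and 0, 2, 3, 1, 0 and 2 genes in that order had an unadjusted p under 0.05. DESeq2 called 1 of them, the glia marker ptr-10, and limma 0. None of the markers with a row in the tables was at 0 in all libraries. The part of these differences in the ttr results was not tested.

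In ok3407 larvae 12 ttr genes rose against wild type and 0 fell, among 55 that had enough reads to be tested. The 12 were ttr-26, ttr-30, ttr-20, ttr-18, ttr-38, ttr-33, ttr-59, ttr-32, ttr-7, ttr-51, ttr-45 and ttr-8, and their rises ran from 3.34-fold to 15-fold. They are 21.8% of the tested members, while 3.33% of all 16055 tested genes rose and 2.91% fell at the same threshold, 534 and 467 genes, or 6.23% in either direction. Scaled by total reads alone, without TMM factors, 757 genes rose and 167 fell. The test was edgeR's quasi-likelihood test, with Benjamini-Hochberg adjustment over all tested genes and a threshold of 0.05. Whole larvae were sequenced, so more or fewer cells of a type cannot be told apart from more or less RNA per cell.

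All 3 ok3407 libraries were above all 3 wild-type libraries in each of the 12. The gap between the lowest ok3407 library and the highest wild-type library was smallest in ttr-32, at 2.2 times, and largest in ttr-30, at 3.93 times. Over all 55 tested members, 23 had the ok3407 libraries entirely above the wild-type libraries and 2 entirely below, where 14.4% and 14.5% of all tested genes did so. At an unadjusted p under 0.05, 20 members were higher in ok3407 larvae and 0 were lower, where 12.1% of all tested genes were higher and 11.5% lower. DESeq2 called 16 members higher, with 6.24% of all genes it gave an adjusted p called higher and 6.71% lower, and limma called 15 higher, with 4.55% of all tested genes called higher and 1.37% lower. In counts simulated for this comparison 23.4% of the DESeq2 calls and 3.57% of the edgeR calls were false. The simulation changed 200 genes and drew counts once, with the spread of each gene as edgeR had estimated it. These shares therefore do not carry over to the calls made here. In each of the 21 alternative settings, DESeq2 and limma among them, 0 members fell. The median log2 fold change of the tested members was 0.53, against 0.03 for all tested genes. Scaled by total reads alone these medians were 0.74 and 0.24.

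**Figure D1:**
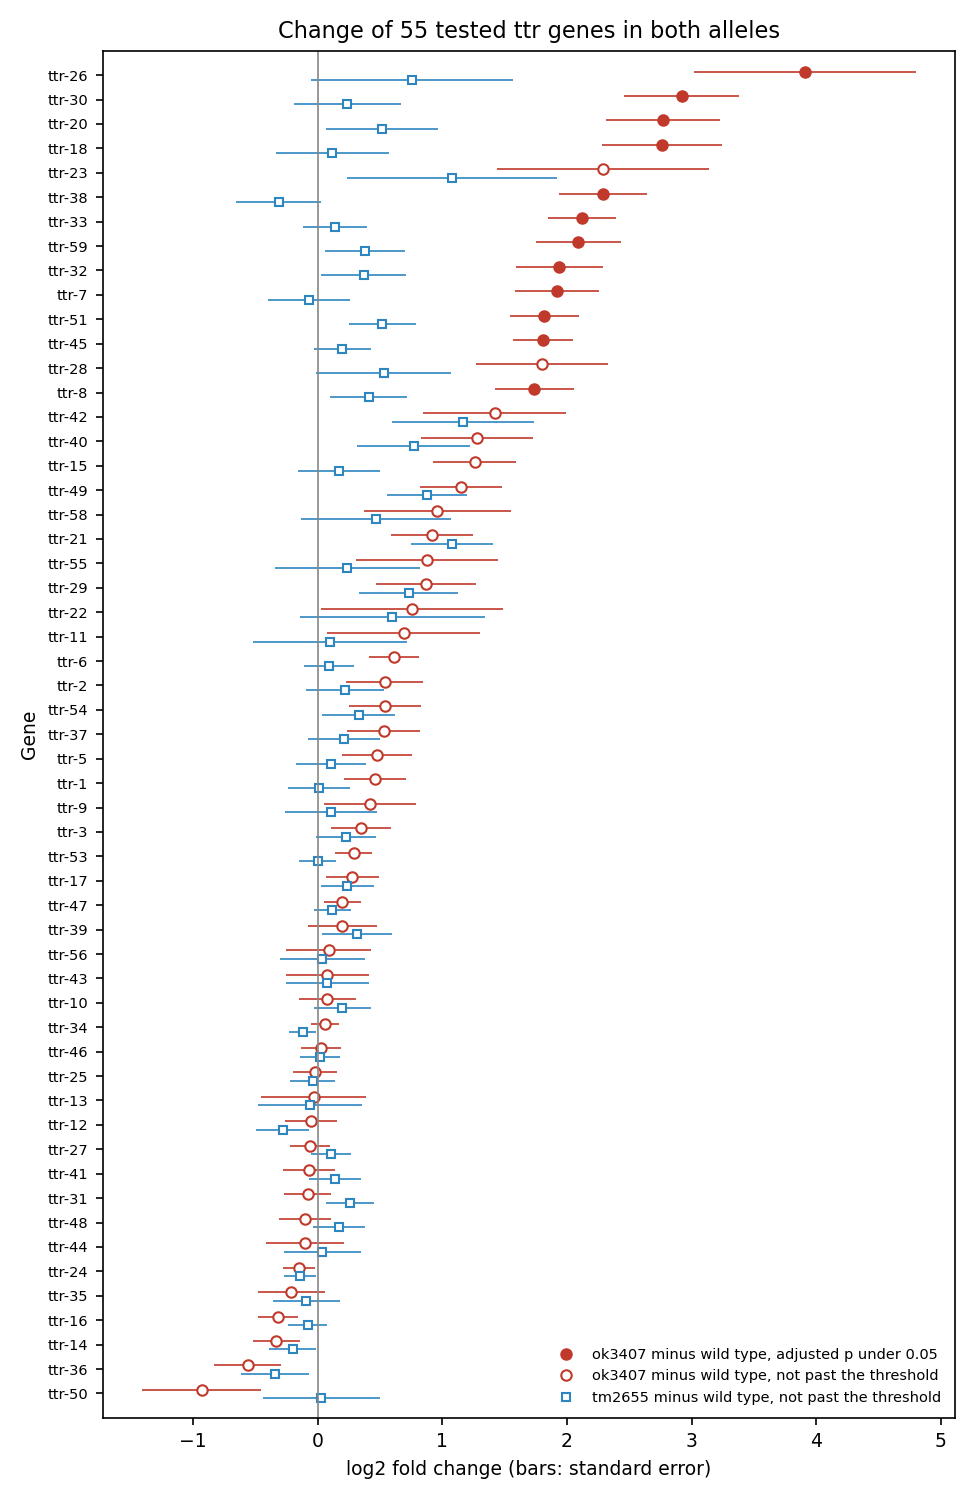
The plot gives the log2 fold change of each of the 55 tested ttr genes, with its standard error, for ok3407 minus wild type (red circles) and tm2655 minus wild type (blue squares), ordered by the red values. The 12 filled circles, from 1.74 to 3.91, passed the adjusted p threshold, and 0 blue squares did.

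ttr-33, the member known for protecting dopamine neurons, lies on chromosome V from 7837240 to 7837900 on the minus strand. All positions are those of the deposited tables, whose genome build is not named, and lie within 1000 bases of the genes of the same names in WBcel235. ttr-33 stood at 118.9, 68.6 and 54.6 CPM in ok3407 larvae, at 22.6, 16.4 and 22.1 CPM in tm2655 larvae and at 19.1, 17 and 19.5 CPM in wild-type larvae. The wild-type and tm2655 values covered nearly the same range, and every ok3407 library was above them. It rose 4.36-fold (log2 2.12 ± 0.27, SE, adjusted p = 0.00457) against wild type, the smallest adjusted p of the family. The gene sits inside an intron of mig-6, which runs on the opposite strand, and overlaps 0 of its annotated exons in WBcel235. How the counting treated strand is not given in the sources used here, so reads of the pair cannot be fully told apart. mig-6 averaged 1068 ± 133 CPM in ok3407 larvae and 1172 ± 116 CPM in wild-type larvae (SD, n = 3 each), a log2 difference of -0.13 with adjusted p = 0.613. Of the ttr-33 reads, 76.1% mapped to 1 place in the genome, and with these reads alone its log2 fold change was 1.83 (adjusted p = 0.00565).

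Of 7 genes of dopamine neurons, the cells that TTR-33 is known to protect, 1 fell in ok3407 larvae and 0 rose, with 3 lower and 1 higher at an unadjusted p under 0.05. Of all tested genes 2.91% fell and 3.33% rose, and 11.5% were lower and 12.1% higher at an unadjusted p under 0.05. bas-1, the aromatic amino acid decarboxylase of dopamine and serotonin synthesis, fell to 12.5, 14.8 and 14.8 CPM in ok3407 larvae, against 26.6, 28.9 and 21.2 CPM in tm2655 larvae and 29.6, 18.5 and 27.3 CPM in wild-type larvae. Its log2 fold change against wild type was -0.84 ± 0.20 (SE, adjusted p = 0.0407). That call was lost without any 1 ok3407 library, without tm2655 replicate 2 and without wild-type replicate 1 or 3, with adjusted p from 0.0534 to 0.158, and also with scaling by total reads alone (0.0974), limma (0.103 and 0.102 at its 2 pseudocounts), the replicate number as a block (0.0761) and the 6 libraries of the comparison alone (0.0617). The dopamine transporter gene dat-1 had a log2 fold change of -0.63 (adjusted p = 0.163 with edgeR). The tyrosine hydroxylase gene cat-2 had one of -0.78 (adjusted p = 0.202). The higher gene was dop-2, at log2 0.62 (adjusted p = 0.153). It had 6.24, 9.32 and 7.44 CPM in ok3407 larvae and 5.22, 5.69 and 4.09 CPM in wild-type larvae. The rest of the list, ceh-43, cat-1 and ast-1, had log2 fold changes of 0.24, -0.02 and -0.4 (adjusted p = 0.708, 0.979 and 0.507).

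ttr-52, the bridging protein of engulfment, was too low to test. It had 3, 14 and 12 reads in ok3407 larvae, 2, 14 and 4 reads in tm2655 larvae and 0, 5 and 5 reads in wild-type larvae. The groups overlapped, and no difference is detectable at this depth. Of 14 genes of engulfment and axon fusion, all tested, 2 rose in ok3407 larvae and 0 fell, against 3.33% and 2.91% of all tested genes, and 7 were higher and 0 lower at an unadjusted p under 0.05, against 12.1% and 11.5%. With DESeq2 5 of the 14 were called, against 6.24% of all genes called higher, and with limma on RPKM 4, against 4.55%, all of them higher. In tm2655 larvae 0 of the 14 passed against wild type with edgeR, DESeq2 or limma, and 0 had an unadjusted p under 0.05.

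eff-1, a fusogen that joins cell membranes, had 18, 22.6 and 15.6 CPM in ok3407 larvae, 6.43, 5.50 and 4.24 CPM in tm2655 larvae and 7.04, 5.51 and 6.93 CPM in wild-type larvae. Its ok3407 libraries lay entirely above the other 6, with a log2 fold change against wild type of 1.53 ± 0.23 (SE, adjusted p = 0.00802). ced-7, an ABC transporter needed for corpse engulfment, had 227, 367 and 247 CPM in ok3407 larvae, 126, 104 and 111 CPM in tm2655 larvae and 103, 135 and 107 CPM in wild-type larvae. It too was higher in every ok3407 library than in the other 6, with a log2 fold change of 1.29 ± 0.20 (SE, adjusted p = 0.00889), and without wild-type replicate 3 the adjusted p was 0.0589. The receptor gene ced-1 stood at 145, 103 and 74.3 CPM in ok3407 larvae and at 58.8, 42.0 and 50.5 CPM in wild-type larvae. In tm2655 larvae it had 84.4, 43.6 and 52.1 CPM, and tm2655 replicate 1 was above ok3407 replicate 3. Against wild type ced-1 did not pass with edgeR (log2 1.10 ± 0.30, SE, adjusted p = 0.0664), while DESeq2 and limma called it higher in ok3407 larvae. psr-1, which encodes another phosphatidylserine receptor of axon fusion, had a log2 fold change of -0.05 (adjusted p = 0.851).

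The largest fitted rise of the family with all libraries was that of ttr-26, on chromosome V from 18558866 to 18560275 on the minus strand. It had 490.3, 93.8 and 64.4 CPM in ok3407 larvae, 42.2, 14.8 and 16.3 CPM in tm2655 larvae and 17.6, 7.08 and 18.8 CPM in wild-type larvae. ok3407 replicate 1 alone was far above the others of its group. The fold change was 15 (log2 3.91 ± 0.89, SE, adjusted p = 0.0420), the call nearest the threshold. Without ok3407 replicate 1 the fold was 5.5 and the adjusted p 0.063, below the 7.73-fold of ttr-20 in the same fit, and the call was lost in 7 of the 9 fits that leave a library out.

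ttr-30 and ttr-59 are neighbours on the plus strand of chromosome X, ttr-59 from 7329982 to 7330567 and ttr-30 from 7331191 to 7331729. ttr-30 had 192, 72.8 and 59 CPM in ok3407 larvae, 21.4, 11.6 and 17.9 CPM in tm2655 larvae and 15, 13.2 and 14.8 CPM in wild-type larvae. ttr-59 had 229, 121.9 and 109 CPM in ok3407 larvae, 66.3, 34.1 and 39.7 CPM in tm2655 larvae and 32, 35.1 and 40.9 CPM in wild-type larvae. In both genes ok3407 replicate 1 was the highest library of the 9 and the ok3407 libraries did not overlap the rest. ttr-30 rose 7.55-fold (log2 2.92 ± 0.46, SE, adjusted p = 0.0133), and 4.59-fold without ok3407 replicate 1. ttr-59 rose 4.25-fold (log2 2.09 ± 0.34, SE, adjusted p = 0.0131).

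ttr-18, on chromosome II from 11485634 to 11486747 on the minus strand, had 948, 318 and 313 CPM in ok3407 larvae, 112, 69.6 and 71.6 CPM in tm2655 larvae and 98.7, 58.3 and 76.3 CPM in wild-type larvae. It rose 6.78-fold (log2 2.76 ± 0.48, SE, adjusted p = 0.0181), and 4.06-fold without ok3407 replicate 1. ttr-20, on chromosome IV from 4246921 to 4247403 on the plus strand, had 16.6, 30.02 and 21.9 CPM in ok3407 larvae, 3.32, 2.77 and 8.28 CPM in tm2655 larvae and 2.06, 3.58 and 4.28 CPM in wild-type larvae. Here ok3407 replicate 1 was the lowest of its group, unlike in the other 11 genes, and the rise was 6.82-fold (log2 2.77 ± 0.46, SE, adjusted p = 0.0132). ttr-38, on chromosome X from 9312700 to 9314488 on the minus strand, had 23.9, 25.2 and 11.2 CPM in ok3407 larvae, 3.85, 3.46 and 2.60 CPM in tm2655 larvae and 2.77, 4.59 and 4.84 CPM in wild-type larvae. It rose 4.89-fold (log2 2.29 ± 0.35, SE, adjusted p = 0.00918), and its fitted difference between tm2655 and wild type was the lowest of the 12 (log2 -0.31 ± 0.34, SE, adjusted p = 0.998).

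The divergent neighbours ttr-8 and ttr-32 lie on chromosome III, ttr-8 from 7564555 to 7565345 on the minus strand and ttr-32 from 7566572 to 7567428 on the plus strand. ttr-32 had 191, 81.7 and 71.8 CPM in ok3407 larvae, 43.4, 31.8 and 40.4 CPM in tm2655 larvae and 25.5, 32.6 and 31.5 CPM in wild-type larvae, a rise of 3.84-fold against wild type (log2 1.94 ± 0.35, SE, adjusted p = 0.0199). ttr-8 had 114, 60.7 and 56.3 CPM in ok3407 larvae, 40.5, 20.9 and 30.3 CPM in tm2655 larvae and 19.7, 24.3 and 25.1 CPM in wild-type larvae, a rise of 3.34-fold (log2 1.74 ± 0.32, SE, adjusted p = 0.0182). In both, 2 tm2655 libraries were above all wild-type libraries and all ok3407 libraries were above those in turn. ttr-7, also on chromosome III, from 606074 to 606928 on the plus strand, had 92.7, 58.5 and 46.5 CPM in ok3407 larvae, 20.4, 10.2 and 19.3 CPM in tm2655 larvae and 18.9, 13 and 20.4 CPM in wild-type larvae. It rose 3.79-fold (log2 1.92 ± 0.34, SE, adjusted p = 0.0162), with tm2655 and wild type covering nearly the same range.

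ttr-51 and ttr-45 are divergent neighbours on chromosome IV, ttr-51 from 13250719 to 13252311 on the minus strand and ttr-45 from 13254237 to 13255294 on the plus strand. ttr-51 had 665, 487 and 402 CPM in ok3407 larvae, 306, 163 and 162 CPM in tm2655 larvae and 154, 127 and 159 CPM in wild-type larvae. ttr-45 had 359, 236 and 205 CPM in ok3407 larvae, 111, 76.8 and 73.4 CPM in tm2655 larvae and 84.0, 66.2 and 77.7 CPM in wild-type larvae. ttr-51 rose 3.53-fold (log2 1.82 ± 0.28, SE, adjusted p = 0.0104) and ttr-45 3.51-fold (log2 1.81 ± 0.24, SE, adjusted p = 0.00493), nearly the same size. All 3 tm2655 libraries of ttr-51 were above all 3 wild-type libraries, but the difference did not pass the test (log2 0.52 ± 0.27, SE, adjusted p = 0.998).

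**Figure D2:**
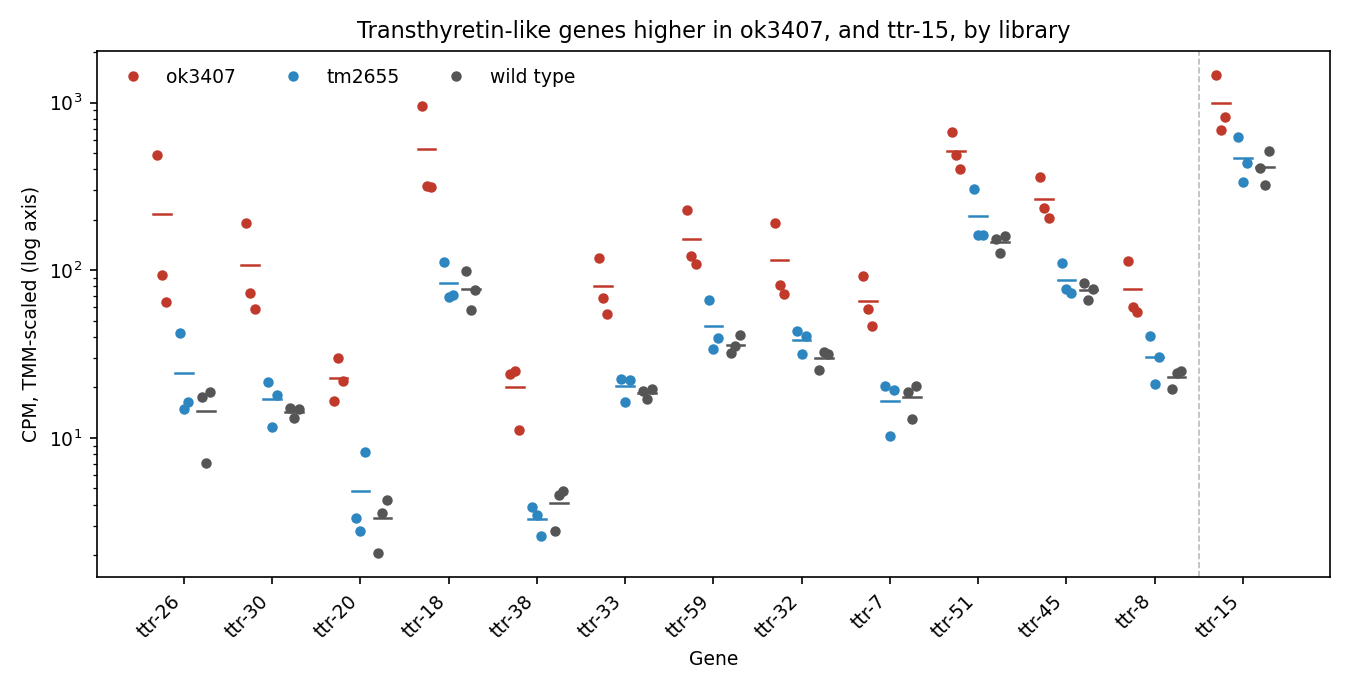
Points are CPM on a log axis in the 9 libraries for the 12 genes that rose and for ttr-15, which did not pass, with ok3407 in red, tm2655 in blue and wild type in grey, and bars at the group means. The red points lie above the blue and grey points in every gene, and the highest red point is ok3407 replicate 1 in 10 of the 12.

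Spread among the ok3407 libraries differed between the 12 genes. The highest ok3407 library was 1.65 to 7.61 times the lowest, and the highest wild-type library 1.14 to 2.66 times the lowest. ok3407 replicate 1 was the highest of its group in 10 of the 12 and replicate 3 the lowest in 11. Summed over the 12, the level was 3442, 1654 and 1414 CPM in ok3407 larvae, 794, 456 and 504 CPM in tm2655 larvae and 490, 401 and 493 CPM in wild-type larvae. Without ok3407 replicate 1, 11 of the 12 calls were kept and the folds ran from 2.53 to 7.73.

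The molting cycle, in which the cuticle is remade, was followed with a list of 13 genes, since lethargus is tied to the molt. Their summed level was 209 to 409.7 CPM in ok3407 larvae, 116 to 275 CPM in tm2655 larvae and 112 to 319 CPM in wild-type larvae, so the groups overlapped. Of the 13, noah-1 and fbn-1, which encode apical matrix proteins, rose in ok3407 larvae against wild type (log2 3.27 ± 0.78, SE, adjusted p = 0.0467, and log2 2.03 ± 0.46, SE, adjusted p = 0.0351). Leaving out any 1 of the 9 libraries lost the noah-1 call, with adjusted p from 0.0522 to 0.171. The fbn-1 call was lost without ok3407 replicate 1 or 3 or any wild-type library, with adjusted p from 0.0723 to 0.0976, and with limma (0.111 and 0.0912 at its 2 pseudocounts). At an unadjusted p under 0.05, 5 of the 13 were higher and 0 lower, where 12.1% of all tested genes were higher and 11.5% lower. DESeq2 called 4 higher, noah-1, fbn-1, mlt-11 and ptr-4, against 6.24% of all genes it gave an adjusted p. limma called 1 higher, noah-1, against 4.55% of all tested genes. The median log2 fold change of the list was 0.6, against 0.03 for all tested genes. The part of the molt stage in the ttr results was not tested.

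Per exon length, the most abundant member was ttr-15 in all 3 groups, on chromosome III from 10337873 to 10339250 on the plus strand. It had 3562, 1658 and 2009 RPKM in ok3407 larvae, 1429.8, 729 and 920.0 RPKM in tm2655 larvae and 865, 729 and 1035 RPKM in wild-type larvae. The ok3407 libraries were above all others, but the difference from wild type did not pass (log2 1.26 ± 0.33 in CPM, SE, adjusted p = 0.0584). It passed in 7 of the 21 alternatives, with DESeq2 at adjusted p = 0.00415, and in the rest its adjusted p was up to 0.148.

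The order of levels below ttr-15 differed between the groups. In ok3407 larvae ttr-18 averaged 1115 ± 766 RPKM, ttr-51 1083 ± 273 RPKM, ttr-16 685 ± 29.6 RPKM and ttr-45 616 ± 184 RPKM (SD, n = 3). In tm2655 larvae ttr-16 averaged 722 ± 78.4 RPKM, ttr-14 457 ± 56.6 RPKM, ttr-51 403 ± 185 RPKM and ttr-2 388 ± 106 RPKM. In wild-type larvae ttr-16 averaged 741 ± 114 RPKM, ttr-14 504 ± 37.7 RPKM, ttr-2 313 ± 43.1 RPKM and ttr-51 265 ± 12.7 RPKM. The ranges of ttr-15 and the next member overlapped in every group, whereas in wild-type larvae ttr-16 and ttr-14 were each clear of the member below. ttr-46, the remaining member among the 8 highest over all libraries, averaged 304 ± 6.87 RPKM in ok3407 larvae, 279 ± 5.89 RPKM in tm2655 larvae and 261 ± 47.5 RPKM in wild-type larvae.

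The other abundant genes outside the 12 did not pass. ttr-16 had 317, 314 and 293 CPM in ok3407 larvae and 362, 319.9 and 471 CPM in wild-type larvae, and its log2 difference was -0.32 (adjusted p = 0.274). ttr-14 had a log2 difference of -0.33 (adjusted p = 0.324) and ttr-2 one of 0.54 (adjusted p = 0.336). ttr-46 had one of 0.03 (adjusted p = 0.936). As a share of the family's summed RPKM, the 12 genes made up 42.0% in ok3407 larvae, 19.7% in tm2655 larvae and 16.4% in wild-type larvae. Mean levels of at least 100 RPKM were reached by 23 members in ok3407 larvae, 15 in tm2655 larvae and 15 in wild-type larvae, and 17, 21 and 24 members in that order were below 10 RPKM. Of all gene reads, ttr genes took 0.775%, 0.514% and 0.495% in ok3407 larvae, 0.371%, 0.295% and 0.322% in tm2655 larvae and 0.309%, 0.278% and 0.321% in wild-type larvae.

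**Figure D3:**
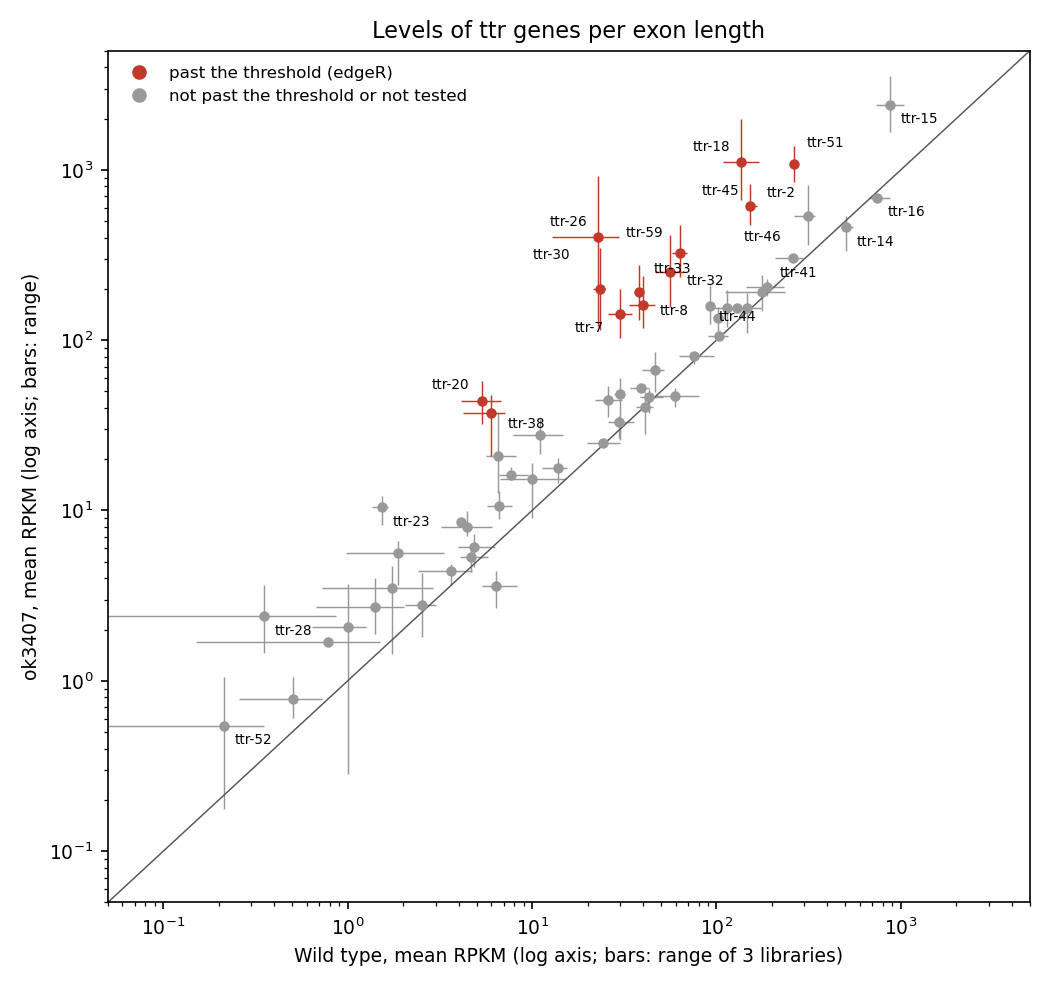
Mean RPKM in ok3407 larvae is plotted against mean RPKM in wild-type larvae for 57 ttr genes on log axes, with bars for the range of the 3 libraries and a line of equal levels; the 2 members with a mean below 0.1 RPKM in either group are left out. The 12 red genes, from 5.35 to 265 RPKM in wild type, lie above the line, while ttr-16 and ttr-14 lie close to it.

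The 43 tested members that did not pass in ok3407 larvae had log2 differences from -0.93 to 2.29 and adjusted p from 0.0584 to 0.979. ttr-23 had the largest difference among them (log2 2.29 ± 0.85, SE, adjusted p = 0.150). It had 4.43, 5.35 and 5.90 CPM in ok3407 larvae, 5.56, 0.955 and 0.308 CPM in tm2655 larvae and 1.34, 0.978 and 0.930 CPM in wild-type larvae. In that gene tm2655 replicate 1 stood at the ok3407 level while the other 2 tm2655 libraries did not exceed the wild-type range, and without tm2655 replicate 1 the adjusted p against wild type was 0.0165. ttr-49 had 18.4, 14 and 11 CPM in ok3407 larvae, 17.4, 8.53 and 9.75 CPM in tm2655 larvae and 4.74, 8.15 and 6.42 CPM in wild-type larvae (log2 1.15 ± 0.33, SE, adjusted p = 0.0693). ttr-28 had 2.31, 1.18 and 0.769 CPM in ok3407 larvae and 0.553, 0.237 and 0.465 CPM in wild-type larvae (log2 1.80 ± 0.53, SE, adjusted p = 0.0765). The ok3407 libraries of these 3 genes were all above the wild-type libraries.

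The lowest difference in ok3407 larvae was that of ttr-50, with 1.84, 3.32 and 2.35 CPM in ok3407 larvae, 7.97, 4.84 and 1.81 CPM in tm2655 larvae and 6.24, 3.88 and 4.32 CPM in wild-type larvae. Its ok3407 libraries lay below all wild-type libraries, as did those of ttr-16, but it did not pass (log2 -0.93 ± 0.48, SE, adjusted p = 0.278).

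In tm2655 larvae 0 ttr genes passed against wild type, and 1 gene of all 16055 rose (0.00623%) and 0 fell. With edgeR 2 members were at an unadjusted p under 0.05, ttr-21 and ttr-49, both higher, where 1.82% of all tested genes were higher and 0.654% lower, and with DESeq2 or limma 0 members passed as well. ttr-21 had 14.5, 6.65 and 6.02 CPM in tm2655 larvae and 3.64, 4.77 and 4.42 CPM in wild-type larvae (log2 1.08 ± 0.33, SE, adjusted p = 0.998). The tested members' log2 differences ran from -0.34 in ttr-36 to 1.17 in ttr-42, with a median of 0.17 against 0.01 for all tested genes. In 4 members, ttr-51, ttr-49, ttr-28 and ttr-21, the tm2655 libraries lay entirely above the wild-type libraries, as in 3.85% of all tested genes, and in 0 members entirely below, as in 2.62%.

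tm2655 replicate 1 was the highest library of its group in 28 of the 55 tested members and in 11 of the 12 that rose in ok3407 larvae. In 10 of these 12 it was above every wild-type library, which held for tm2655 replicate 2 in 1 gene and for tm2655 replicate 3 in 6. Over the 55 tested members this held for tm2655 replicates 1, 2 and 3 in 27, 10 and 20. The share over all tested genes was not computed. On the third principal component of all tested genes tm2655 replicate 1 stood apart, as given above.

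The difference between the alleles themselves was tested between ok3407 and tm2655. Of the tested members 11 were higher in ok3407 larvae than in tm2655 larvae and 0 lower, which is 20.0%, against 2.33% of all tested genes higher, 1.69% lower and 4.02% in either direction. At an unadjusted p under 0.05, 15 were higher and 0 lower, where 8.11% of all tested genes were higher and 9.53% lower. In 16 members the ok3407 libraries lay entirely above the tm2655 libraries and in 2 entirely below, as in 11.2% and 12.3% of all tested genes. The 11 are the 12 above without ttr-26, whose log2 difference of 3.14 ± 0.86 did not pass (SE, adjusted p = 0.0878). The smallest adjusted p-values were those of ttr-38 (log2 2.60 ± 0.35, SE, adjusted p = 0.00496) and ttr-33 (log2 1.98 ± 0.27, SE, adjusted p = 0.00527). The smallest difference was that of ttr-51 (log2 1.30 ± 0.28, SE, adjusted p = 0.0332), and ttr-8 was nearest the threshold (log2 1.34 ± 0.31, SE, adjusted p = 0.0495). Both comparisons use the same ok3407 libraries, so they are not independent of each other. Without tm2655 replicate 2 or replicate 3 the count was 4 each, and without ok3407 replicate 2 it was 6.

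The 12 genes were spread over the genome. They lay on chromosomes II (1 gene), III (3), IV (3), V (2) and X (3), and the 59 members on chromosomes I (3), II (2), III (10), IV (10), V (22) and X (12). The deposited exon length, a multiple of 3 in 58 of the 59 members and so close to a coding length, was 417 to 435 bases in the 12, with a median of 427.5, and 345 to 1221 bases in the 43 that did not pass, with a median of 438. Intron reads made up 0.279% to 24.6% of the reads of the 12 and 0.156% to 27% of those of the 43. Except for ttr-33, all reads of the 12 were uniquely mapped. Among the other tested members ttr-3 had the lowest share of uniquely mapped reads, 79.2%.

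Neighbouring members were read as pairs of ttr genes next to each other and at most 20000 bases apart, with no other protein-coding gene of WBcel235 centred between them, which gave 16 pairs of 28 members. In 3 pairs both genes rose in ok3407 larvae, in 1 pair 1 of them did, and in 12 pairs 0 did. The 3 pairs are ttr-8 with ttr-32, 1226 bases apart, ttr-51 with ttr-45, 1925 bases apart, and ttr-59 with ttr-30, 623 bases apart. The first 2 of these are divergent, with their starts facing each other, and the last is on 1 strand. ttr-26 is the gene that rose without its neighbour, as ttr-25, convergent with it and 843 bases away, had a log2 difference of -0.02 (adjusted p = 0.959). Next to that, ttr-24 had one of -0.15. ttr-16 and ttr-17, and ttr-3, ttr-2 and ttr-1, are further neighbours in which 0 genes passed. The other 5 of the 12, ttr-20, ttr-18, ttr-38, ttr-33 and ttr-7, have no such neighbour.

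**Figure D4:**
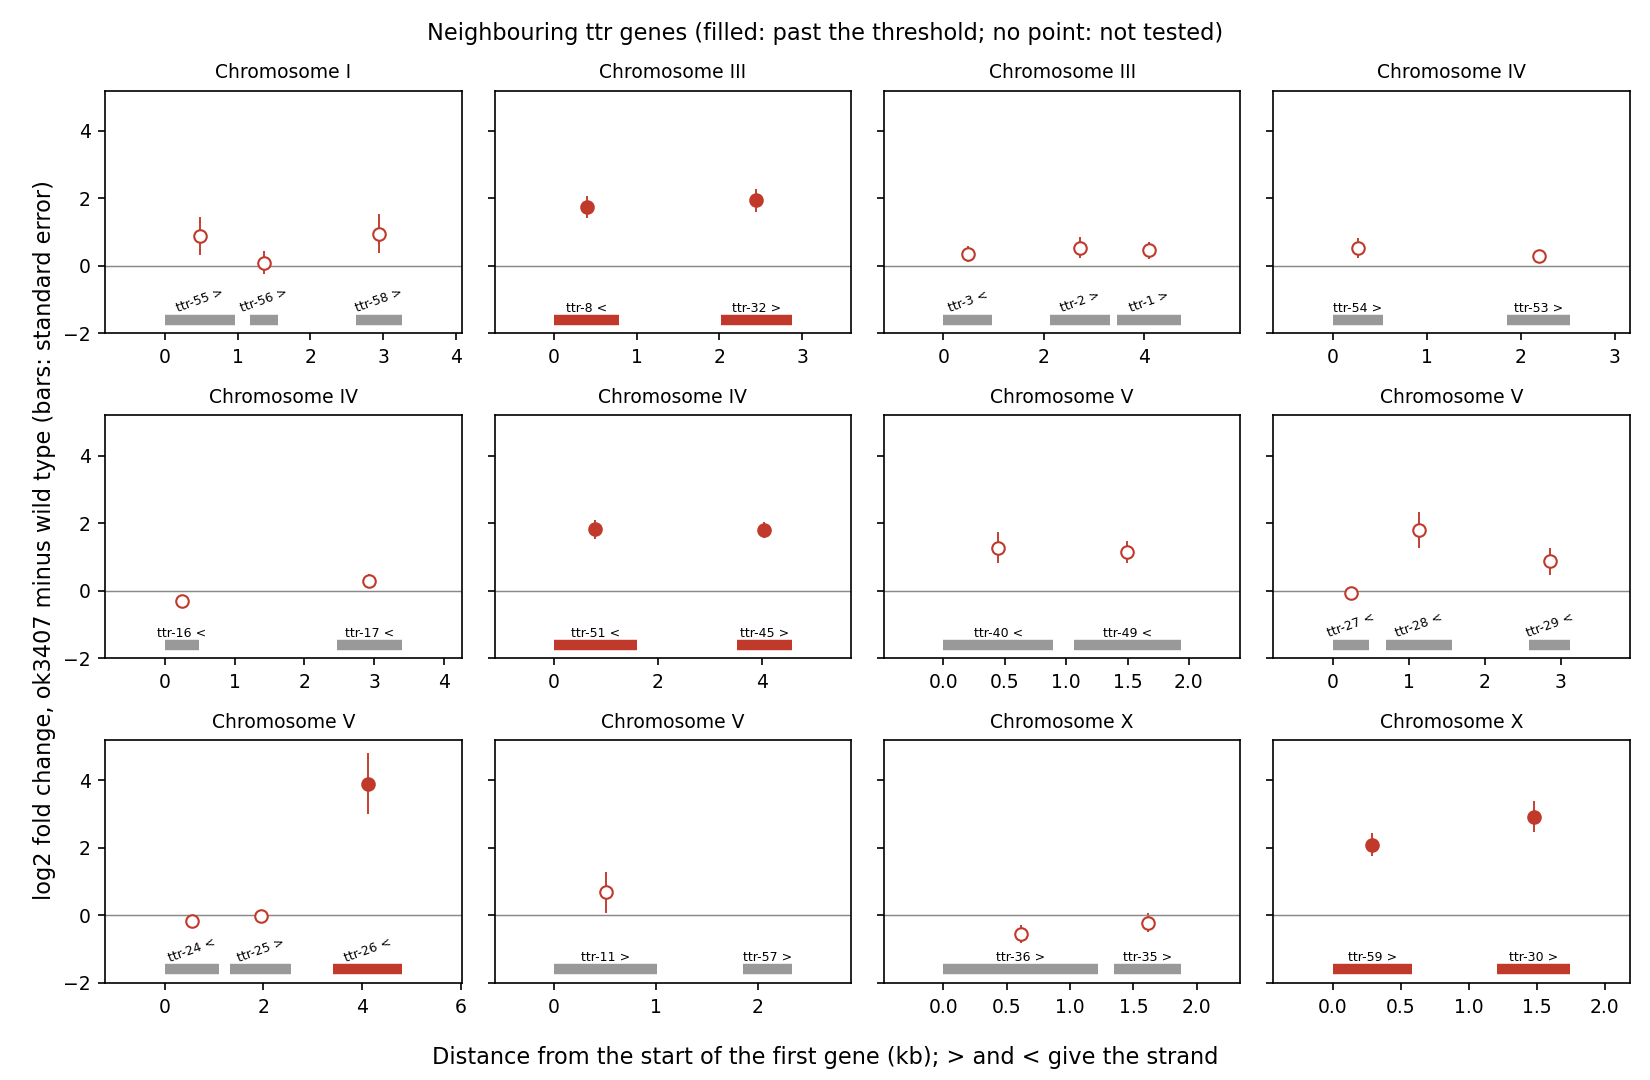
Each of the 12 panels is a run of neighbouring ttr genes, drawn by distance in kb from the start of the first, with the log2 fold change of ok3407 minus wild type and its standard error above each gene and the gene's extent as a bar. Red bars and filled points mark genes past the threshold. Both genes of the pairs ttr-8 and ttr-32, ttr-51 and ttr-45, and ttr-59 and ttr-30 are filled, and ttr-26 is filled beside ttr-25 near 0.

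Spread between libraries differed among members. The largest standard deviations of log2 CPM within a group were those of ttr-26 in ok3407 larvae (1.55), ttr-23 in tm2655 larvae (1.5), ttr-50 in tm2655 larvae (0.95) and ttr-22 in ok3407 larvae (0.938). The median over the tested members was 0.355 in ok3407 larvae, 0.314 in tm2655 larvae and 0.265 in wild-type larvae.

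In the authors' deposited table for ok3407 against wild type, 15 ttr genes are listed among 925, all higher in ok3407. Of the 925 listed genes 647 are higher and 278 lower, where the deposited table of gene reads holds 46699 genes, 59 of them ttr genes. The smallest absolute fold listed is 2.0, and the largest FDR-corrected p-value of the authors' EDGE test is 0.05. The 15 ttr genes are the 12 genes above and ttr-15, ttr-23 and ttr-49. That authors' deposited table gives ttr-26 a fold of 15.5, ttr-30 one of 7.6, ttr-15 one of 2.4 and ttr-49 one of 2.2. The authors' deposited table for tm2655 lists 7 genes and 0 ttr genes.

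The calls were recomputed with 1 library left out at a time. ttr-38, ttr-33 and ttr-45 passed in all 9 of these fits against wild type, with adjusted p up to 0.0476, 0.0362 and 0.0382. Without wild-type replicate 3 these 3 were the genes still called, and the other 9 had adjusted p from 0.0559 to 0.135, while the folds of the 12 in that fit were 3.51 to 17.9 and 0 of them moved by over 1.5 times. Without wild-type replicate 1 7 were called, and ttr-7, ttr-8, ttr-32, ttr-26 and ttr-59 were lost. Over all tested genes 95 rose without wild-type replicate 3, against 534 with all libraries.

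**Figure D5:**
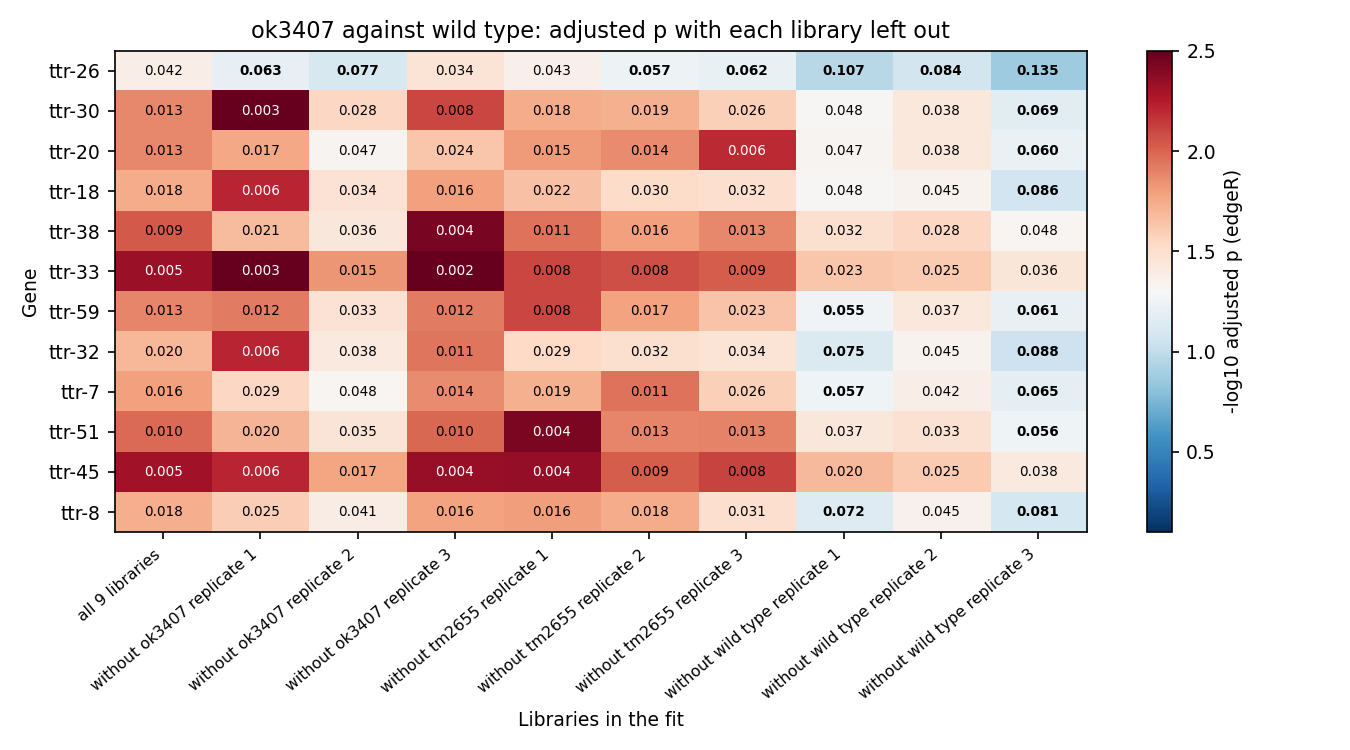
Each cell holds the adjusted p of ok3407 against wild type for 1 of the 12 genes, with all 9 libraries in the first column and 1 library left out in each other column; colour gives -log10 of it, and bold marks values at or above 0.05. The last column, without wild-type replicate 3, keeps ttr-38, ttr-33 and ttr-45, and the row of ttr-26 keeps 2 of 9.

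The filter on low counts left out 4 members, which were not tested. Besides ttr-52, ttr-57 had 9, 8 and 11 reads in ok3407 larvae, 9, 2 and 9 reads in tm2655 larvae and 1, 7 and 7 reads in wild-type larvae. ttr-19 had 3, 0 and 0 reads in ok3407 larvae, 1, 0 and 0 reads in tm2655 larvae and 0 reads in each wild-type library. ttr-4 had 3, 0 and 2 reads in ok3407 larvae, 1, 0 and 0 reads in tm2655 larvae and 1, 0 and 0 reads in wild-type larvae. All of these were deposited as intron reads. The deposited exon length of 468 bases covers the whole gene, from 9916190 to 9916657, so they are not read as intron signal. Of the ttr-4 reads 28.6% were uniquely mapped, and the gene was not matched by name in WBcel235. In these 4 genes no difference is detectable at this depth. Just above the filter were ttr-55 with 203 reads over the 9 libraries, ttr-22 with 205 and ttr-28 with 215.

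R09H10.3, a relative of transthyretin of the enzyme type named for hydrolysis of 5-hydroxyisourate, does not carry a ttr name. It had 25, 28.6 and 30.8 CPM in ok3407 larvae, 41, 46.7 and 56.5 CPM in tm2655 larvae and 42.7, 30.2 and 50.8 CPM in wild-type larvae. In ok3407 larvae 2 libraries were below every wild-type library and 1 was just above the lowest, and the difference did not pass (log2 -0.55 ± 0.20, SE, adjusted p = 0.134). Against tm2655 all ok3407 libraries were lower, and the difference did not pass with edgeR (log2 -0.77 ± 0.20, SE, adjusted p = 0.0645). There DESeq2 called R09H10.3 lower in ok3407 larvae, and limma did not. A second relative of that type, ZK697.8, had 2 reads in wild-type replicate 2 and 0 in the other 8 libraries.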

How the data were processed

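RNA of whole larvae was isolated from sleeping larvae and sequenced as stranded mRNA in paired-end runs of 75 cycles, per the labels' protocols. RPKM and counts are the authors' own: they deposited counts of reads per gene (exon, intron and uniquely mapped reads in separate columns), whose sum over exons and introns was used here, and expression values equal to the RPKM column of the tables of single libraries. The authors' deposited tables of changes hold p-values, FDR-corrected p-values and signed fold changes as a score; per the file headers the test was EDGE with dispersions estimated tag by tag. For the aligner, counting rule, strand setting, build and annotation, nothing is stated (not given in the sources used here). Coordinates are those of the deposited tables, and 58 of 59 members were matched by name to WBcel235.

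Counts of all 9 libraries were fitted together with edgeR 4.0.16 in R 4.3.3 (TMM factors, filterByExpr, robust quasi-likelihood test), which left 16055 genes. SE is the log2 fold change divided by the square root of F. Alternatives used DESeq2 1.42.0 and limma 3.58.1, limma on log2(RPKM + 1) and log2(RPKM + 0.1). On counts simulated for the comparison of ok3407 with wild type over 16055 genes, 79% of the 4-fold and 29% of the 2-fold changes were found with edgeR, with 3.57% of its calls false. With DESeq2 these were 92%, 55% and 23.4%. In that simulation 200 genes were changed, and counts were drawn once from edgeR's own dispersion estimates. Full statistics were given for members past an adjusted p of 0.05, and levels for the 8 highest mean RPKM. The members and gene lists were chosen with earlier results of these data known. p-values set each difference against the spread between libraries within groups. That spread was estimated per gene over all 3 groups together, with information shared across genes. Replicate numbers were not used to pair the samples in the main fit.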

Additional observations from a re-analysis of the deposited data

How the results depend on the processing

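Against wild type, the number of ttr genes higher in ok3407 larvae was 12, lay between 11 (no filter) and 16 (DESeq2) over the 12 alternatives that kept all libraries of the comparison, and between 3 and 16 when 1 library was left out. Between ok3407 and tm2655 it was 11, and was 4 when the 6 libraries of the comparison were fitted alone. DESeq2 kept the 11 and added ttr-15 and ttr-26, and limma kept the 11. When 1 library was left out the number lay between 4 and 11. The cause of these differences was not tested. In these settings 0 members were lower in ok3407 larvae, and 0 passed between tm2655 and wild type. The log2 difference of ttr-46 between ok3407 and wild type was 0.03, and lay between -0.15 and 0.16 when 1 library was left out. Over all genes, DESeq2 called 982 higher and 1056 lower in ok3407 larvae than in wild type, against 534 and 467. Deviations from the group means correlated at r from -0.24 to 0.40 between libraries with the same number. The highest value was that of tm2655 replicate 3 with wild-type replicate 3. With so few libraries these values cannot decide whether the numbers pair the samples. With the replicate block 13 members were higher in ok3407 larvae than in wild type, the 12 and ttr-15, and 12 were higher than in tm2655 larvae, 10 of the 11 with ttr-15 and ttr-26, while ttr-32 was lost. With 3 libraries a group, changes near 2-fold were often missed in simulated counts.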
